A study of Mus musculus with 20 samples.

Results

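The aryl hydrocarbon receptor (AhR) pathway was examined in mouse liver through 5 genes, namely the receptor Ahr, its partner Arnt, the cytochrome P450 genes Cyp1a1 and Cyp1a2, and Tiparp. The genes were matched by symbol in a table of unnormalised read counts from RNA sequencing, and all 5 were found among its 55487 gene identifiers. Female C57BL/6J mice entered the study at 8 weeks of age and were fed chow or a high-fat diet (HFD). Over the last 10 weeks the HFDs, matched for energy, differed in the source of 50% of their protein, which was beef, filet of salmon or fishmeal from its by-products. Livers were taken at 28 weeks of age. Each library came from the liver of 1 mouse, so the p-values describe the spread between mice, and a change in the number of cells of a type cannot be told apart from a change in RNA per cell. The 20 libraries were grouped by the ending of their column name, which gave 5 mice each on chow, fishmeal, salmon and beef. Mouse 31 is named as beef in the count table and as salmon in its sample label. It was counted as beef, and fold changes and ratios with the label are given beside the salmon and beef results.

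The libraries held from 42526234 to 70266136 counts on genes. Protein coding genes took 93.2% to 95.6% of these, apart from 84.3% in beef mouse 35. Of the 40 pairs of libraries within groups, each differed by more than counting noise (chi-square per gene 31.9 to 414). The libraries also differed in a circadian clock index, the mean log2 level of Arntl, Npas2 and Clock minus that of Dbp, Ciart, Per3 and Tef relative to all mice. The index ranged from 1.58 to 3.57 in chow-fed mice, from -3.74 to 1.124 with fishmeal, from -3.96 to 1.66 with salmon and from -4.76 to 2.72 with beef, where beef mouse 31 was the highest.

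AhR is a ligand-activated transcription factor of the bHLH-PAS family. Without a ligand it is held in the cytoplasm by a chaperone complex with Hsp90. Planar aromatic pollutants, plant compounds and some tryptophan metabolites bind it, after which it enters the nucleus, pairs with Arnt and binds xenobiotic response elements (XRE) in the DNA of its target genes. Cyp1a1 and Cyp1a2 are the classical targets in liver. Cyp1a2, which oxidises caffeine and aromatic amines, is expressed constitutively in hepatocytes around the central vein, whereas Cyp1a1 is low until a ligand induces it. Tiparp is an ADP-ribosyltransferase that is induced by AhR and restrains it in turn.

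Cyp1a1 (ENSMUSG00000032315) and Cyp1a2 (ENSMUSG00000032310) lie head to head on mouse chromosome 9. In GENCODE M21 on GRCm38, Cyp1a1 spans chr9:57687928-57703824 on the plus strand and Cyp1a2 spans chr9:57676937-57683703 on the minus strand, and their RefSeq start sites are 13958 bp apart. Ahr (ENSMUSG00000019256) spans chr12:35497974-35535038 on the minus strand, where the non-coding gene Gm48236 overlaps it. Arnt (ENSMUSG00000015522) spans chr3:95434388-95497240 and Tiparp (ENSMUSG00000034640) spans chr3:65528410-65555518, both on the plus strand and both overlapped by a pseudogene, Gm42672 and 4931440P22Rik. Whether reads were counted by strand is not given in the sources used here.

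RefSeq promoters (GRCm38.p6) were matched for 4 of the 5 genes. They are shown because AhR with Arnt binds DNA at the XRE core, spelled GCGTG, which is in capitals here on either strand (CACGC on the other). Each runs 5′ to 3′ before the RefSeq start and is cut where a GENCODE exon of the gene begins within it. The Cyp1a1 sequence lies inside the span that GENCODE gives the gene. They cover chr9:57697363-57697612 on the plus strand for Cyp1a1, chr9:57683704-57683905 on the minus strand for Cyp1a2, chr3:95434140-95434387 on the plus strand for Arnt and chr3:65528197-65528409 on the plus strand for Tiparp.
Cyp1a1: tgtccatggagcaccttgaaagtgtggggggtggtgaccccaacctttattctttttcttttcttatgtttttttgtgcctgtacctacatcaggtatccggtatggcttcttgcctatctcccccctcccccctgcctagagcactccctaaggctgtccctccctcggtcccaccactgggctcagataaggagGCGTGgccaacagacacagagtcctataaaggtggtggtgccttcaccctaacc
Cyp1a2: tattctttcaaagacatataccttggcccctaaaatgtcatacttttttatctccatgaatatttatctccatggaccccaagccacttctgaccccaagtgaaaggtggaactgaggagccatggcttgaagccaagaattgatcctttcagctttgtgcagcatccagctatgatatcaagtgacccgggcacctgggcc
Arnt: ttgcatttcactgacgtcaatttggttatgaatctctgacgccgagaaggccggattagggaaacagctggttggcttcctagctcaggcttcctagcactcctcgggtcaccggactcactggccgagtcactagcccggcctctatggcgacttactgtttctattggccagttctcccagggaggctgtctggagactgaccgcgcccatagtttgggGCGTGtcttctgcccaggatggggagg
Tiparp: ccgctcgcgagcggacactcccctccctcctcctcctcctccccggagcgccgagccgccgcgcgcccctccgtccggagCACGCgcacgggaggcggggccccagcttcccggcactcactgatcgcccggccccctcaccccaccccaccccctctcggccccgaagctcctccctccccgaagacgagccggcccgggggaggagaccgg

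Over the 250 bases before the start, searched on both strands, the XRE core was present in Cyp1a1 (54 bases before the start), Arnt (29 bases before) and Tiparp (170 bases before, minus strand) and was not in the window of Cyp1a2. These letters are common, since 28.2% of 32851 RefSeq promoter windows of this length held them. The longer form TNGCGTG, held by 4.1% of the windows, and the E-box CACGTG that clock factors bind, held by 6.02%, were searched in the printed sequences. They were in 0 of the 4, of which Cyp1a2 (202 bases), Arnt (248) and Tiparp (213) are shorter than the windows. A TATA box, spelled TATAAA and held by 12.4%, was in the Cyp1a1 window and, for Cyp1a2, in the bases between the sequence printed and the RefSeq start, which GENCODE annotates as exon. Motif matches describe the letters of these windows only.

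Levels between genes were compared per length, in TPM (counts scaled by gene length and library size). The order was Cyp1a2 over Ahr over Arnt over Tiparp over Cyp1a1, and it held in 20 of 20 libraries. Cyp1a2 stood at 511 ± 79.7 TPM (SD, n = 5) in chow-fed and 254 ± 63.6 TPM (n = 15) in HFD-fed mice, a median of 13.3 times the level of Ahr across the libraries. Ahr and Arnt were the closest neighbours, with a ratio of Ahr to Arnt between 1.04 and 1.77. Cyp1a1 was at the other end, at 0.717 ± 0.197 TPM with chow and 0.283 ± 0.144 TPM with HFD.

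The first comparison asked how HFD feeding with any of the 3 protein sources differed from chow. Of the 5 genes, Ahr, Cyp1a1 and Cyp1a2 were expressed at a lower level in HFD-fed mice, and Arnt and Tiparp did not pass the test. In edgeR's two-sided quasi-likelihood test, with Benjamini-Hochberg adjustment over all 17120 genes tested, genes at an adjusted p under 0.05 made up 9.75% of all genes in either direction and 5.21% in the lower direction. The median log2 fold change of the 5 genes was -0.45, against 0.00 over all genes tested. The same 3 genes were called with each of the 20 mice left out in turn.

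**Figure D1:**
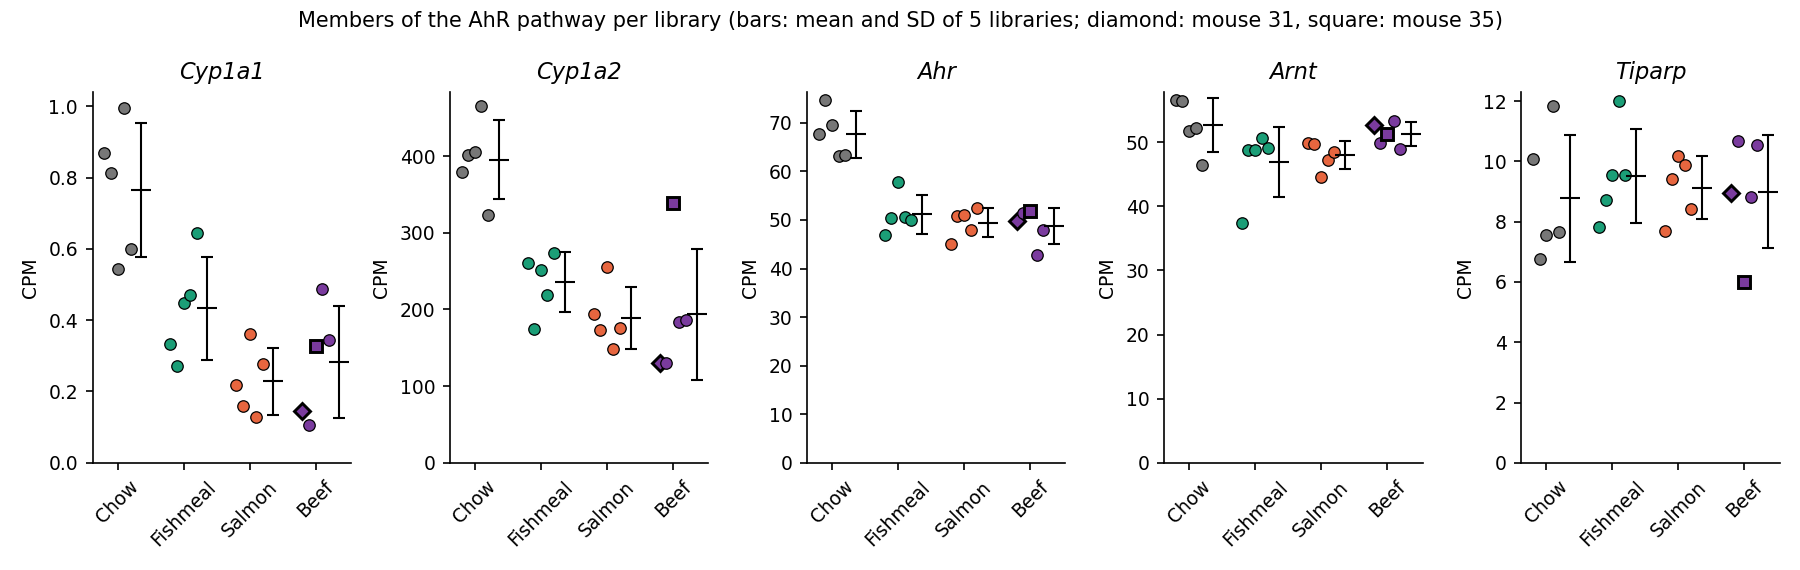
Expression of the 5 genes in CPM (counts scaled by library size, vertical axes from 0) in each of 20 libraries, by diet group, with the mean and SD of each group as a bar and whiskers; the diamond is mouse 31 and the square mouse 35. Ahr in all 15 HFD-fed mice lies below the lowest chow-fed mouse (63.1 CPM), and Cyp1a2 does so in all but beef mouse 35.

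Ahr encodes the receptor itself. In CPM (counts scaled by library size), chow-fed mice 1, 2, 5, 7 and 10 had 67.6, 74.8, 69.5, 63.1 and 63.3. Mice 12, 13, 14, 16 and 20 on fishmeal had 47.0, 50.5, 57.9, 50.6 and 49.98 CPM. With salmon, mice 22, 23, 25, 26 and 27 had 45.1, 50.8, 51.0, 47.8 and 52.5 CPM. All of these HFD-fed mice were below every chow-fed mouse. The same was true of beef mice 31, 32, 35, 39 and 40, with 49.7, 51.5, 51.9, 42.8 and 48.0 CPM. The chow and HFD groups did not overlap, which 0.888% of all genes tested showed in the lower direction. Ahr was 1.36-fold lower with HFD (log2 fold change -0.45 ± 0.0631 SE, adjusted p = 9.85e-05 in edgeR), from a mean of 67.7 ± 4.82 CPM (SD, n = 5) to 49.8 ± 3.49 CPM (n = 15).

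Arnt, the partner that AhR shares with the hypoxia-inducible factors, overlapped between the groups. Chow-fed mice 1, 2, 5, 7 and 10 had 56.5, 56.5, 51.8, 52.2 and 46.4 CPM. The 15 HFD-fed mice ranged from 37.3 CPM in fishmeal mouse 12 to 53.3 CPM in beef mouse 39. Chow mouse 10 was thus below most HFD-fed mice, and fishmeal mouse 12 was the lowest of all. Mean Arnt expression was 52.7 ± 4.19 CPM with chow and 48.7 ± 3.79 CPM with HFD. The difference did not pass the test (log2 fold change -0.12, 95% interval -0.26 to 0.02, adjusted p = 0.307 in edgeR).

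Cyp1a2 was the most abundant of the 5 genes. Chow-fed mice 1, 2, 5, 7 and 10 had 379, 401, 406, 466 and 323 CPM. Mice 12, 13, 14, 16 and 20 on fishmeal had 260, 174, 252, 219 and 273 CPM, and none of them reached the lowest chow-fed mouse. Salmon mice 22, 23, 25, 26 and 27 had 194, 173, 255, 148 and 176 CPM, again below all chow-fed mice. Beef mice 31, 32, 35, 39 and 40 had 130, 130, 339, 184 and 187 CPM. In CPM, beef mouse 35, with the lower share of protein coding counts, was the only HFD-fed mouse above a chow-fed one (mouse 10). In TPM this mouse had 363, and the lowest chow-fed mouse had 410. On that scale no HFD-fed mouse reached the chow range. Cyp1a2 was 1.92-fold lower with HFD, from 395 ± 51.4 CPM (SD, n = 5) to 206 ± 59.1 CPM (n = 15; log2 fold change -0.94 ± 0.169 SE, adjusted p = 9.82e-04 in edgeR).

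Cyp1a1 was counted on 6 to 58 reads per library, so its values carry more counting error than those of the other genes. Chow-fed mice 1, 2, 5, 7 and 10 had 0.869, 0.814, 0.544, 0.995 and 0.601 CPM. With fishmeal, mice 12, 13, 14, 16 and 20 had 0.332, 0.271, 0.447, 0.470 and 0.646 CPM, and mouse 20 was above the 2 lowest chow-fed mice. Salmon mice 22, 23, 25, 26 and 27 had 0.219, 0.158, 0.361, 0.128 and 0.277 CPM. Beef mice 31, 32, 35, 39 and 40 had 0.145, 0.106, 0.329, 0.488 and 0.344 CPM. Every salmon and beef mouse was below every chow-fed mouse, and the 15 HFD-fed mice were all below the chow mean. Cyp1a1 was 2.45-fold lower with HFD (log2 fold change -1.29 ± 0.290 SE, adjusted p = 0.00623 in edgeR), from 0.765 ± 0.188 CPM to 0.315 ± 0.153 CPM. The annotated exons of Cyp1a1 and Cyp1a2 share 94 stretches of 50 bases, the length of the reads. These are 3.43% of the stretches of Cyp1a1 and 4.79% of those of Cyp1a2, which was counted on 7170 to 25316 reads per library. The part of reads from the far more abundant Cyp1a2 in the Cyp1a1 counts was not tested.

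Tiparp, the feedback target, did not pass the test. Chow-fed mice 1, 2, 5, 7 and 10 had 10.1, 6.75, 7.55, 11.8 and 7.65 CPM. The HFD-fed mice lay between 6.00 CPM in beef mouse 35 and 12.0 CPM in fishmeal mouse 16, so that the groups overlapped almost entirely. The log2 fold change of HFD against chow was 0.07 (95% interval -0.20 to 0.34, adjusted p = 0.805 in edgeR), with means of 9.22 ± 1.44 CPM and 8.77 ± 2.12 CPM. The interval reaches neither the change of Ahr nor that of the Cyp1a genes.

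With the clock index as a covariate, the same 3 genes were called in HFD versus chow. The log2 fold changes became -1.88 for Cyp1a1 (adjusted p = 0.00853 in edgeR), -1.28 for Cyp1a2 (0.00182) and -0.47 for Ahr (0.00374). In that fit 371 genes were called in all, or 2.17% of those tested. Of the HFD-fed mice, salmon mouse 22 (index 1.66) and beef mouse 31 (2.72) alone were within the range of the chow-fed mice (1.58 to 3.57). The diet and the index could thus be separated only weakly in this fit.

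Each HFD group was next compared with chow on its own. These comparisons share the 5 chow libraries and are therefore not independent of each other. Cyp1a2 and Ahr were lower than in chow-fed mice in all 3 diet groups, and Cyp1a1 passed the test with salmon but not with fishmeal or beef. By RT-qPCR on more mice per group, the paper reported that hepatic Cyp1a1 mRNA was reduced in every HFD group. The differences between these diets were tested separately and are given after the comparisons with chow. Arnt and Tiparp passed in none of them, with log2 fold changes from -0.17 to 0.11 and adjusted p from 0.269 to 0.946 in edgeR.

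**Figure D2:**
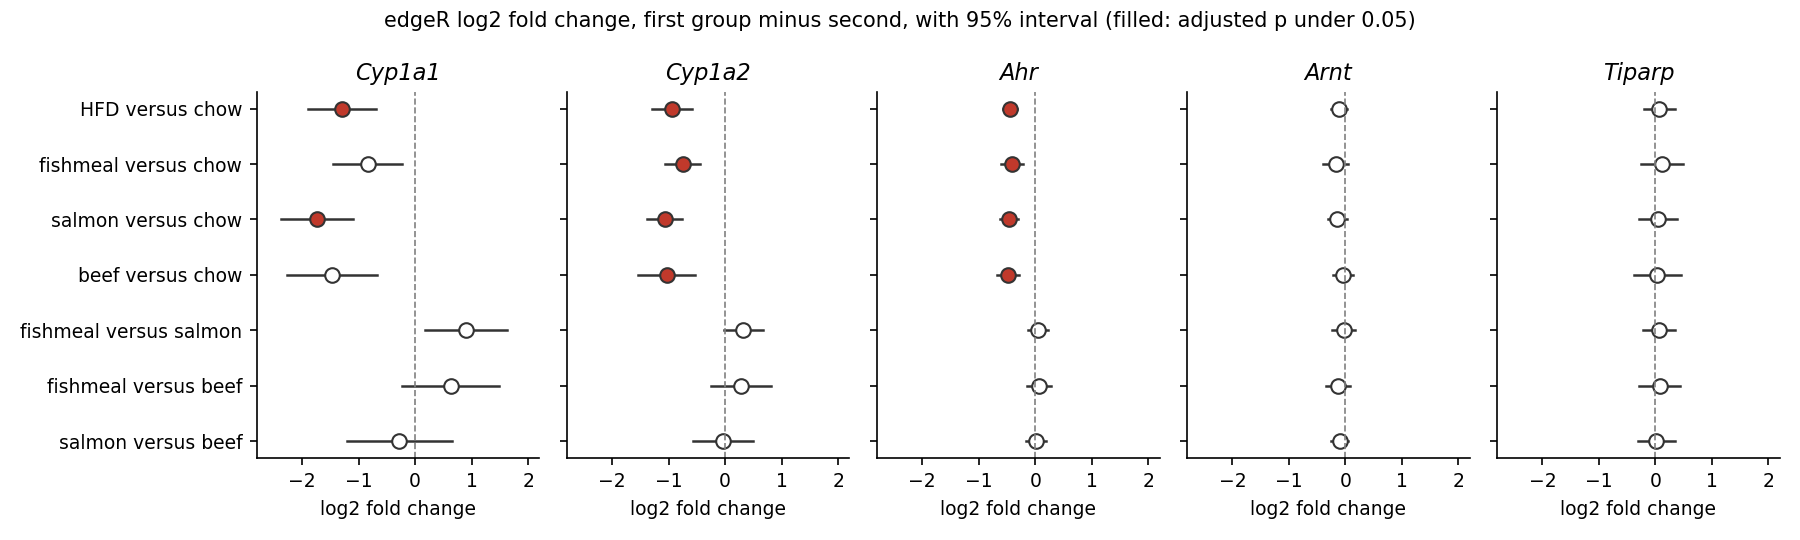
Log2 fold changes of the 5 genes (horizontal axes) with 95% intervals in 7 comparisons; filled points have an adjusted p under 0.05. Ahr, Cyp1a1 and Cyp1a2 lie below 0 in each comparison with chow, whereas no gene is filled between HFD groups.

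With fishmeal, 2 of the 5 genes were called, where 3.38% of all genes were. Cyp1a2 was 1.68-fold lower (log2 fold change -0.75 ± 0.142 SE, adjusted p = 0.0131 in edgeR), at 236 ± 39.7 CPM, and Ahr was 1.33-fold lower (-0.41 ± 0.0900, adjusted p = 0.0283), at 51.2 ± 4.03 CPM. For both, all 5 fishmeal-fed mice were below all chow-fed mice, which 3.13% of all genes tested showed. Cyp1a1 was at 0.433 ± 0.144 CPM, and its log2 fold change of -0.84 had a 95% interval from -1.45 to -0.23 but an adjusted p of 0.137 in edgeR. The Ahr call was lost in 6 of 10 fits with 1 mouse left out, namely chow mice 2, 5 and 7 and fishmeal mice 13, 16 and 20 (adjusted p 0.0524 to 0.0857, log2 fold change -0.43 to -0.36). With the clock index as a covariate, the adjusted p was 0.119 for Cyp1a2 and 0.278 for Ahr, in a fit that called 0.219% of all genes. Since the index of the fishmeal-fed mice did not overlap that of the chow-fed mice, the diet and the index could be separated only weakly here.

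With salmon, 3 of the 5 genes were called, where 4.42% of all genes were. Cyp1a1 was 3.34-fold lower than with chow (log2 fold change -1.74 ± 0.294 SE, adjusted p = 0.0115 in edgeR), at 0.229 ± 0.0934 CPM. Cyp1a2 was 2.10-fold lower (-1.07 ± 0.144, adjusted p = 0.00307), at 189 ± 40.5 CPM. Ahr was 1.37-fold lower (-0.46 ± 0.0746, adjusted p = 0.00932), at 49.5 ± 2.95 CPM. For all 3 genes the 5 salmon-fed mice were below the 5 chow-fed mice, which 4.42% of all genes tested showed. The calls held with each mouse left out. With mouse 31 as salmon, as its label says, the log2 fold changes were -1.83, -1.15 and -0.46, with adjusted p of 0.00443, 0.00169 and 0.00460. With the clock index as a covariate, Cyp1a2 alone was called, and the adjusted p was 0.254 for Cyp1a1 and 0.161 for Ahr. In that fit 0.17% of all genes were called. Of the salmon-fed mice, mouse 22 alone had an index within the range of the chow-fed mice, so the diet and the index could be separated only weakly.

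In beef-fed mice 2 of the 5 genes were called, where 3.05% of all genes were. Ahr was 1.392-fold lower than with chow (log2 fold change -0.48 ± 0.0881 SE, adjusted p = 0.0157 in edgeR), at 48.8 ± 3.69 CPM, with no overlap between the groups. Over all genes tested, 3.17% had no such overlap in the lower direction. Cyp1a2 was 2.05-fold lower (-1.04 ± 0.235, adjusted p = 0.0361 in edgeR), at 194 ± 85.6 CPM, and overlapped in CPM through mouse 35. Cyp1a1 was at 0.282 ± 0.157 CPM, and although all beef-fed mice were below all chow-fed mice, its log2 fold change of -1.47 ± 0.364 SE had an adjusted p of 0.0508 in edgeR. DESeq2 gave Cyp1a1 an adjusted p of 0.00330, edgeR on all genes with 1 count or more 0.0481 and edgeR on all 4 groups 0.0210.

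Both Cyp1a genes lay close to the threshold in the beef group. The Cyp1a2 call was lost in 8 of 10 fits with 1 mouse left out, namely chow mice 1, 2, 5 and 7 and beef mice 31, 32, 39 and 40 (adjusted p 0.0594 to 0.0943 in edgeR) although the log2 fold change stayed between -1.05 and -0.92, whereas without beef mouse 35 the log2 fold change was -1.33 (adjusted p = 0.00198). Cyp1a1 was called without beef mouse 39 (-1.75, adjusted p = 0.0432). With mouse 31 taken out of the beef group, as its label has it, the log2 fold change was -0.92 for Cyp1a2 (adjusted p = 0.0668), -1.30 for Cyp1a1 (0.0946) and -0.48 for Ahr (0.0285). With the clock index as a covariate, 0 of the 5 genes were called, where 0.11% of all genes were. Of the beef-fed mice, mouse 31 alone had an index within the range of the chow-fed mice, so the diet and the index could be separated only weakly.

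The HFD groups were then compared with each other for these genes. By the paper's account these diets also differed in added soybean oil, fatty acids and cholesterol, which cannot be told apart from the protein source here. In edgeR 0 of the 5 genes were called in each of the 3 comparisons, and DESeq2 and limma called 0 as well, the latter without Cyp1a1, which fell under its TPM minimum. Across all genes, edgeR called 0.17% between fishmeal and salmon, 0.0245% between fishmeal and beef and 0% between salmon and beef. At an unadjusted p under 0.05 in edgeR, the members numbered 1, 0 and 0. All genes at that cutoff numbered 851 of 16494, 422 of 16304 and 796 of 16212 in the same order. For the last comparison DESeq2 called 6 of all genes and limma 0.

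The widest intervals between protein sources were those of Cyp1a1. Between fishmeal and salmon its log2 fold change was 0.90 (95% interval 0.17 to 1.63, adjusted p = 0.897 in edgeR), and all 5 fishmeal-fed mice were above the salmon mean although the groups overlapped. With mouse 31 as salmon it was 1.00 (adjusted p = 0.740). Against beef, fishmeal gave 0.63 (-0.24 to 1.49), or 0.46 without mouse 31 in the beef group. Between salmon and beef, Cyp1a1 differed by -0.28 (-1.20 to 0.65), or by -0.54 with mouse 31 as salmon.

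For Cyp1a2 the log2 fold change was 0.32 between fishmeal and salmon (95% interval -0.02 to 0.67), 0.28 between fishmeal and beef (-0.24 to 0.81) and -0.04 between salmon and beef (-0.58 to 0.50). With mouse 31 as salmon these were 0.41, 0.17 and -0.23. Ahr was bounded more closely, at 0.05 (-0.13 to 0.23), 0.07 (-0.14 to 0.27) and 0.01 (-0.16 to 0.19) in the same order. All 3 of these intervals end short of the 0.45 by which Ahr differed between HFD and chow. Arnt gave -0.03, -0.13 and -0.10, and Tiparp gave 0.06, 0.08 and 0.01. With mouse 31 as salmon the values were 0.06, 0.07 and 0.02 for Ahr, -0.04, -0.12 and -0.07 for Arnt and 0.08, 0.07 and 0.01 for Tiparp.

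The proportion of Cyp1a1 to Cyp1a2 was followed as Cyp1a1 counts per 1000 Cyp1a2 counts. The median was 2.03 in chow-fed mice (1.34 to 2.29), 1.78 with fishmeal (1.28 to 2.36), 1.133 with salmon (0.869 to 1.57) and 1.116 with beef (0.817 to 2.66). Each HFD group overlapped the chow group. In exact two-sided permutation tests the smallest p was 0.0238, for salmon against chow, followed by 0.0397 for fishmeal against salmon. Neither exact permutation p passed Benjamini-Hochberg adjustment over the 7 comparisons (0.139 for both), and HFD against chow gave an exact permutation p of 0.103. With mouse 31 as salmon, an alternative chosen after seeing the data, the medians were 1.124 with salmon and 1.41 with beef, and the exact permutation p was 0.0108 for salmon against chow and 0.0195 for fishmeal against salmon (0.0682 for both after adjustment).

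**Figure D3:**
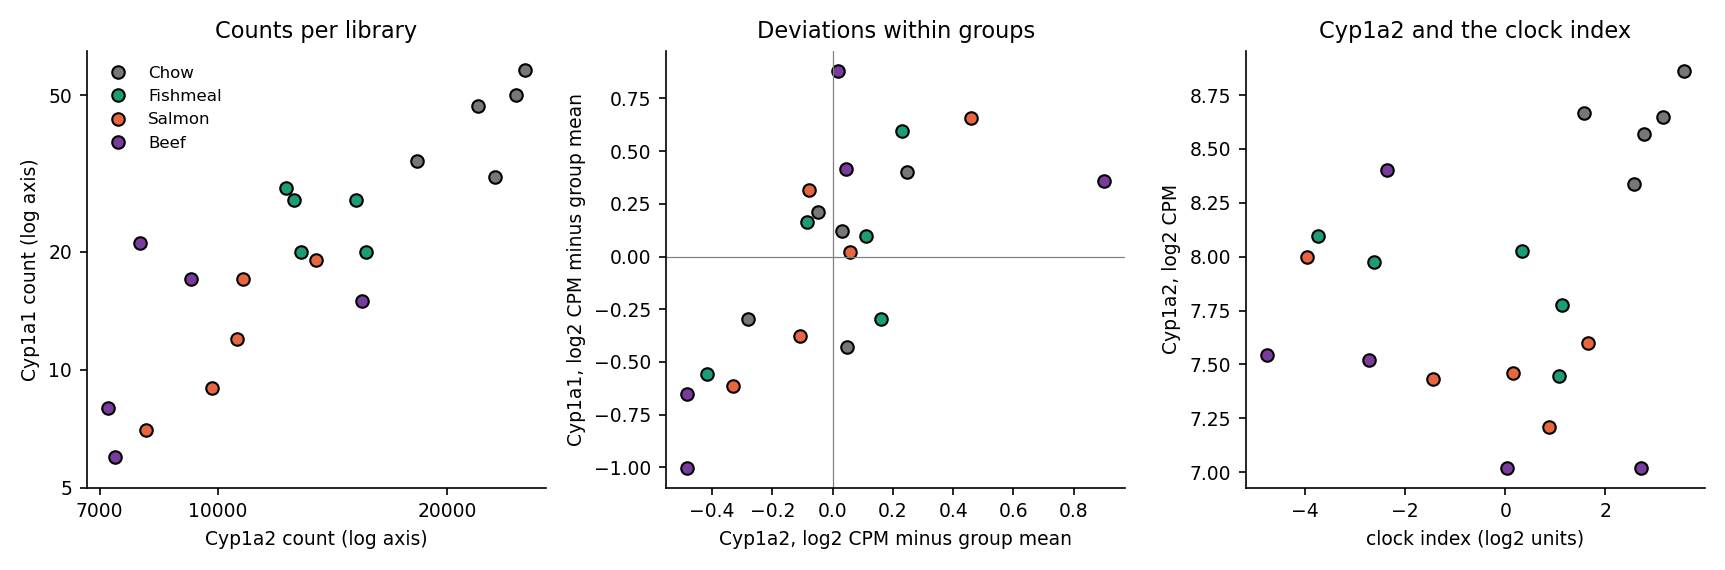
Left, Cyp1a1 against Cyp1a2 counts per library on log axes; middle, log2 CPM of both genes as deviations from their group means; right, log2 CPM of Cyp1a2 against the clock index. Points are the 20 libraries coloured by diet. The deviations of the Cyp1a genes rise together (r = 0.68), and beef mouse 35 has the highest Cyp1a2 deviation.

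Mice of the same group that were high for Cyp1a2 tended to be high for Cyp1a1. The deviations of log2 CPM from the group means had a Pearson r of 0.68 over 20 libraries (permutation p = 0.00811) and a Spearman rho of 0.69 (permutation p = 0.00443), and r was 0.70 without beef mice 32 and 39. Of 15 relations computed, among the 5 genes and between each gene and the clock index, 0 passed Benjamini-Hochberg adjustment, and this pair had adjusted permutation p of 0.122 for r and 0.0664 for rho. Both genes share library and depth with each other and reads of shared sequence may fall on either. Ahr had r = -0.16 with Cyp1a1 and 0.09 with Cyp1a2 (adjusted permutation p = 0.834 and 0.870), and Spearman rho of -0.11 and -0.01 (0.946 and 0.984), and these r were 0.16 and 0.01 without the 2 libraries farthest from the median. The Cyp1a genes ran against the clock index, with r = -0.61 and rho = -0.63 for Cyp1a1 (adjusted permutation p = 0.175 and 0.110) and r = -0.57 and rho = -0.55 for Cyp1a2 (0.221 and 0.150). Without the 2 libraries farthest from the median, these r were -0.61 and -0.65.

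Other genes of the pathway were taken from lists by role, to be read beside the 9.75% of all genes called in HFD versus chow. In HFD versus chow, the chaperone complex that holds AhR had 0 of 4 genes called in edgeR, 1 at an unadjusted p under 0.05 and 0 in DESeq2 or limma. Its most abundant members were Hsp90ab1 (log2 fold change -0.09) and Hsp90aa1 (-0.39, adjusted p = 0.163). Of the coregulators, 1 of 7 was called. This was Nrip1, a corepressor of nuclear receptors (-0.42, adjusted p = 0.0428), and the call was lost in 12 of 20 fits with 1 mouse left out (adjusted p 0.0523 to 0.173), namely chow mice 1, 2 and 7, fishmeal mice 14 and 20, salmon mice 22, 23, 25 and 26 and beef mice 35, 39 and 40. Nrip1 was not called either on all genes with 1 count or more (adjusted p = 0.0558), in limma (0.0606) or with the clock index as a covariate, where its log2 fold change was -0.076 (adjusted p = 0.875). Ncoa2 (0.13) and Med1 (-0.07) were not called.

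**Figure D4:**
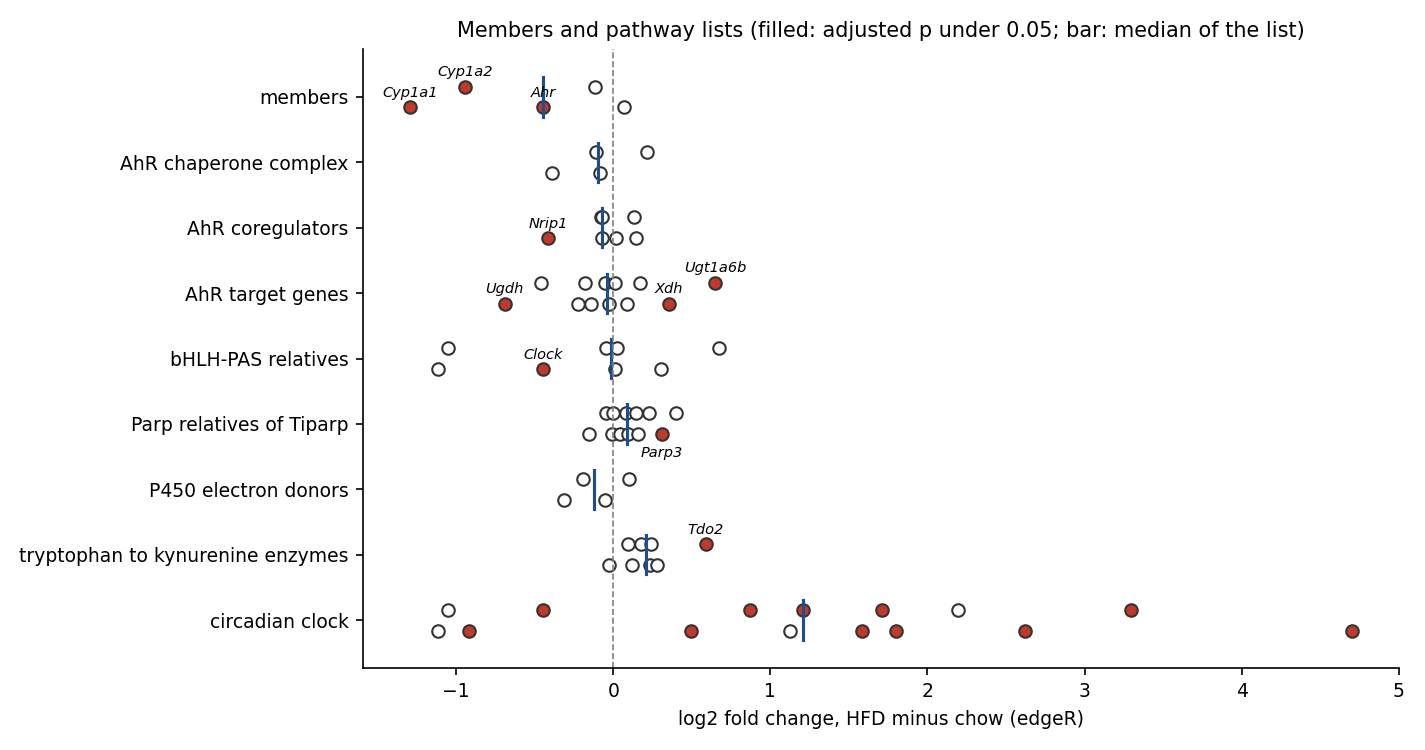
Log2 fold change of HFD against chow (horizontal axis) for the 5 genes and for each tested gene of the pathway lists (rows); filled points have an adjusted p under 0.05 and the bar is the median of each list. The AhR target list has filled points on both sides of 0, while the clock list reaches from -0.92 for Cry1 to 4.70 for Dbp among called genes.

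Further AhR target genes moved in both directions. Of 13 listed, 12 were tested and 3 were called, 1 lower and 2 higher, where 9.75% of all genes were called. The median log2 fold change of the list was -0.039. Ugdh, which makes UDP-glucuronic acid, was 1.61-fold lower, from 134 ± 27.5 to 83.2 ± 19.4 CPM (adjusted p = 0.00642 in edgeR). Ugt1a6b, a glucuronosyltransferase, was 1.57-fold higher, from 33.9 ± 6.30 to 53.3 ± 7.59 CPM with no overlap between the groups (adjusted p = 9.82e-04). Its near-identical copies in the Ugt1a locus share exons with it, so its counts are uncertain. Xdh, xanthine dehydrogenase, was 1.28-fold higher, from 187 ± 7.69 to 240 ± 29.5 CPM (adjusted p = 0.0137). With the clock index as a covariate Ugt1a6b alone of the list was called (log2 fold change 0.63, adjusted p = 0.0205), while the adjusted p was 0.339 for Ugdh and 0.330 for Xdh.

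The most abundant targets that were not called were Selenbp1 (log2 fold change 0.08) and Nfe2l2 (-0.22). Cyp1b1 and Ahrr, picked out after their values were seen because they are widely used as readouts of AhR, had 0.17 (adjusted p = 0.760 in edgeR) and 0.01 (0.991). Ahrr stood at 0.139 ± 0.0491 CPM (SD, n = 5) in chow-fed mice.

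Relatives of the members were called at a share near the 9.75% of all genes. Of 14 bHLH-PAS relatives, 8 were tested and Clock was called (log2 fold change -0.45, adjusted p = 0.0374 in edgeR), whereas Epas1 had 0.30 and Hif1a -0.04. The Clock call was lost without any one of chow mice 1, 2, 5, 7 and 10, fishmeal mouse 20 or beef mouse 39 (adjusted p 0.0504 to 0.154). Among 12 Parp genes, relatives of Tiparp, Parp3 was called (0.31, adjusted p = 0.0331), and Parp9 (0.14) and Parp14 (-0.05) were not. Parp3 was not called without chow mouse 1, 2, 7 or 10 (adjusted p 0.0512 to 0.145), on all genes with 1 count or more (0.0639), in limma (0.0969) or with the clock index as a covariate (0.20, adjusted p = 0.439). Of the proteins that pass electrons to P450 enzymes, 0 of 4 were called in edgeR, DESeq2 or limma and 1 had an unadjusted p under 0.05. In edgeR with the clock index as a covariate 1 of them was called. Cyb5a had 0.10 and Cyb5b -0.31.

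Enzymes that turn tryptophan into kynurenine, a route to AhR ligands, were listed with others that act after or beside this step. The list had 11 genes, of which 8 were tested. Tdo2, which catalyses the first step in liver, was 1.505-fold higher with HFD, from 926 ± 227 to 1397 ± 294 CPM (adjusted p = 0.0230 in edgeR). The call was lost without chow mouse 2, 5, 7 or 10 (adjusted p 0.0503 to 0.0748) and with the clock index as a covariate (log2 fold change 0.52, adjusted p = 0.233). Haao (log2 fold change 0.24) and Kmo (0.12), which act after kynurenine is made, were not called, and the median of the whole list was 0.21.

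The circadian clock list had 11 of 15 genes called, 9 higher and 2 lower, where 9.75% of all genes were called. Higher were the clock output factors Dbp (log2 fold change 4.70), Tef (1.80) and Hlf (0.50), the repressors Ciart (3.29), Per3 (2.62), Per2 (1.21) and Cry2 (0.87), and Nr1d1 (1.71) and Nr1d2 (1.58). Lower were Cry1 (-0.92) and Clock (-0.45). Arntl (-1.05) and Per1 (1.128) were not called. The count was 7 without chow mouse 1 or 2 and 5 without chow mouse 7. Of single genes, Nr1d1 lost its call in 14 of 20 fits with 1 mouse left out (adjusted p 0.0521 to 0.137 in edgeR) and Cry1 in 12 (0.0524 to 0.161). Both lost it without any one of chow mice 1, 2 and 7, fishmeal mice 13, 14 and 20, salmon mice 23, 25 and 27 and beef mice 35, 39 and 40, and Nr1d1 also without chow mouse 10 and salmon mouse 22. Ciart lost it without chow mouse 1, 2, 7 or 10, and Per2 and Per3 without chow mouse 7. The part of the clock genes in the AhR pathway values was not tested beyond the covariate fits.

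Between any pair of HFD groups, 0 genes of these lists were called in edgeR. Of all genes, 0.17% were called between fishmeal and salmon, 0.0245% between fishmeal and beef and 0% between salmon and beef. At an unadjusted p under 0.05, each list held 0 to 2 genes in these comparisons. All genes at that cutoff numbered 851 of 16494, 422 of 16304 and 796 of 16212 in the same order.

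Markers of liver cell types were read beside these results and beside the 9.75% of all genes called in HFD versus chow. The pericentral hepatocyte markers, of the zone where Cyp1a2 is expressed, had 3 of 9 called in HFD versus chow, with Axin2 (log2 fold change -0.77) and Tbx3 (-0.79) lower and Lect2 (0.59) higher. Their summed level was 7599 to 11295 CPM with chow and 9904 to 15530 CPM with HFD. Its largest part was Cyp2e1, which was not called, with means of 5147 CPM with chow and 8330, 6309 and 6772 CPM with fishmeal, salmon and beef. Axin2 and Tbx3 had means of 18.0 and 74.4 CPM with chow and barely enter the sum. Periportal and general hepatocyte markers had 0 of 10 and 0 of 6 called, with 2 and 1 at an unadjusted p under 0.05. Of the other cells, lymphocyte markers had 5 of 7 called lower, with a summed level of 5.69 to 11.48 CPM with chow and 2.16 to 5.78 CPM with HFD. Endothelial and cholangiocyte markers had 1 of 6 and 1 of 5 called, both lower, Kupffer and stellate cell markers 0 of 6 and 0 of 5 (2 and 0 at an unadjusted p under 0.05), and red blood cell markers 1 of 5, higher. Exocrine pancreas markers summed to at most 0.105 CPM. The part of cell composition in the Ahr and Cyp1a results was not tested.

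Genes whose deviations from the group means ran most alike those of each member were picked among 11567 or 11568 protein coding genes, by Pearson r over 20 libraries, as a description. For Cyp1a2 they were Itpripl1 (r = 0.80), Hspa2 (0.80) and BC068157 (0.79), and for Cyp1a1 they were Polr3gl (0.77), Zbtb2 (0.76) and Eef2k (0.75). Ahr was most like Dock1 (0.75), Fam120c (0.73) and Prdm10 (0.72). Arnt had closer companions in Cbl (0.88), Kmt2a (0.87) and Spaca6 (0.86), as had Tiparp in Cnot7 (0.89), Lrrfip2 (0.88) and Peli1 (0.88). Of these 15 genes, Polr3gl (log2 fold change 0.33, adjusted p = 0.0367 in edgeR) and BC068157 (-0.66, 0.0355) were also called in HFD versus chow. All points share libraries and depth.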

How the data were processed

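The authors prepared strand-specific mRNA libraries, trimmed 50 bp paired-end reads with BBDuk, mapped them with HISAT2 1.2.1 and counted them per gene with featureCounts 1.4.6-p1. They deposited raw counts and TPM per Ensembl gene. The paper prints the build as GRCh38, and positions here are from GENCODE M21 on GRCm38. Handling of reads that fit several genes is not given in the sources used here.

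Counts were tested with edgeR 4.0 in R 4.3 by its two-sided quasi-likelihood F-test after TMM normalisation, with genes kept by filterByExpr (minimum count 10) and p-values adjusted by Benjamini-Hochberg over every gene in the fit, and were called at an adjusted p under 0.05. HFD versus chow used all 20 libraries, and the other comparisons used the libraries of their groups. CPM used TMM factors over all libraries, with a prior count of 2 on the log2 scale. Ratios were tested by exact permutation and relations by 100000 permutations within groups. Alternatives were DESeq2 1.42, RLE size factors, all genes with 1 count or more, a fit on all 4 groups, limma 3.58 on log2(TPM + 1) at a mean TPM of at least 0.5, the clock index as a covariate, mouse 31 by its label or left out, and each mouse left out. The edgeR step was tested on simulated data. The 5 genes and the lists were chosen with earlier results of these data known. A gene of the AhR target list is not reported here, and the counts for that list leave it out. Named from the lists were all genes called in HFD versus chow or between HFD groups and up to 3 of the most abundant others, and the 3 genes most like each member at a mean CPM of at least 1.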

Additional observations from a re-analysis of the deposited data

Results flagged for a closer look

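In 28 tests of groups of 5 mice for a single library that stood apart, 2 values did so, where chance gives about 1 in 20. Cyp1a2 was at 339 CPM in beef mouse 35, against 130 to 187 CPM in the other beef-fed mice. Its test statistic (Dixon Q) of 0.727 was just over the critical value of 0.71. TPM values were not put to this test, and were 363 in mouse 35 and 167 to 232.5 in the others. Arnt was at 37.3 CPM in fishmeal mouse 12, against 48.7 to 50.7 CPM in the other fishmeal-fed mice.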

How the results depend on the processing

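Of 654 refitted fold changes of the 5 genes over 7 comparisons, 600 kept their direction and their side of the threshold, 24 lost the call, 4 gained it and 26 changed sign. The cause of these changes was not tested. In HFD versus chow 3 genes were called in all 20 fits with 1 mouse left out and in every other alternative except limma, which called 2 because Cyp1a1 fell under its TPM minimum. In fishmeal versus chow the 2 calls became 1 with all genes of 1 count or more, 1 with limma, 0 with the clock index and 1 to 2 with 1 mouse left out. In salmon versus chow the 3 calls became 1 with the clock index. In beef versus chow the 2 calls became 0 with the clock index, 1 with mouse 31 by its label or left out, and 1 to 2 with 1 mouse left out, and became 3 with DESeq2, with all genes of 1 count or more and on all 4 groups. Of the relations 1 passed with log2(TPM + 1), namely Cyp1a1 with Cyp1a2 (r = 0.66, adjusted permutation p = 0.0480), where Ahr with the clock index had r = 0.064. Ahr with Arnt moved from r = 0.31 to 0.76 and Arnt with Tiparp from 0.16 to 0.50 without passing.

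Signs changed in fold changes that were not called in edgeR. With the clock index, Tiparp in salmon versus chow was -0.014, Arnt in beef versus chow 0.011, Cyp1a2 in salmon versus beef 0.072 and, in HFD versus chow, Selenbp1 -0.037 and Per1 -0.33. With limma, Tiparp in beef versus chow was -0.033 and Cyp1a2 in salmon versus beef 0.10. With 1 mouse left out, Tiparp ranged from -0.012 to 0.20 in HFD versus chow, from -0.029 to 0.18 in salmon versus chow, from -0.044 to 0.17 in beef versus chow, from -0.034 to 0.13 in fishmeal versus salmon, from -0.030 to 0.16 in fishmeal versus beef and from -0.11 to 0.084 in salmon versus beef. Arnt in fishmeal versus salmon ranged from -0.059 to 0.045, Hif1a in HFD versus chow from -0.074 to 0.040, and in salmon versus beef Cyp1a1 from -0.50 to 0.0064, Cyp1a2 from -0.18 to 0.25 and Ahr from -0.029 to 0.045.

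Over all genes, fishmeal versus chow called 556 genes in edgeR and 1175 in DESeq2, 868 on all 4 groups, 367 in limma and 36 with the clock index. Salmon versus chow called 728 against 1748 in DESeq2, 376 in limma and 28 with the index. Beef versus chow called 499 against 1184 in DESeq2, 826 on all 4 groups, 315 in limma and 18 with the index. HFD versus chow called 1669 against 371 with the index. Fishmeal versus salmon called 28 against 98 in DESeq2, fishmeal versus beef 4 against 35, and salmon versus beef 0 against 6. No paired analysis was possible because mouse numbers are unique to each mouse and mark no pairs. Cyp1a1, at 6 to 58 reads per library, is the member whose precision depth limits most.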
